A study of Rattus rattus with 8 samples.

Results

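The glycolysis and glucose uptake genes described here are 10 genes out of the 18089 different RefSeq mRNA accessions on a rat gene expression array. They were chosen by name, and their probes are those whose accession equals that of Slc2a1 (NM_138827), Hk1 (NM_012734), Hk2 (NM_012735), Aldoa (NM_012495), Tpi1 (NM_022922), Gapdh (NM_017008), Pgk1 (NM_053291), Pkm (NM_053297), Ldha (NM_017025) or Hif1a (NM_024359). All 10 genes had a probe, 7 of them 1 probe each, and the list had 14 probes in all. Glycolysis begins when a transporter brings glucose into the cell and a hexokinase adds a phosphate to it, which keeps it inside. Later enzymes split the sugar, and the last ones return energy as ATP and leave pyruvate, which lactate dehydrogenase turns into lactate. Hair follicles are known for a high use of glucose and for releasing much of it as lactate even where oxygen is at hand, and the transcription factor subunit encoded by Hif1a is a known activator of many of these genes when oxygen is low.

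The arrays measured whisker follicles, pooled within a rat, of male Sprague-Dawley rats, with 1 array for each of 8 rats. The labels list the organism as Rattus rattus, while the methods describe adult Rattus norvegicus. The 3 sham control rats (C1, C2 and C3) are labelled with a shock wave pressure of 0 kPa. The 5 blast rats received a shock wave to the head in a blast simulator, at 145 kPa (M2 and M3), 175 kPa (H1) or 200 kPa (XH1 and XH3). According to the methods, exposed rats were held in a sleeve under isoflurane anaesthesia, and follicles were pulled at the end of a shorter or a longer observation period, but the period of each rat is not given in the sources used here. All 8 arrays lay on 1 slide, in 2 rows. The first row held 2 sham control rats and 2 blast rats, and the second held 1 sham control rat (C3) and 3 blast rats. Each difference given for the second row thus rests on C3 as its only sham control rat. Levels are given as log2 of the quantile-normalized intensity, so that a difference of 1 is a doubling. The number of arrays limits the precision of every comparison.

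The brightest probe of each of the 10 genes was well above background on all 8 arrays, and the scanner was saturated by 0 of them. Each gene is described by this probe, and other probes are named as such. The label of the tissue was not checked against follicle markers, because the probes carry accessions without symbols and the keratin and other marker genes were not analysed here. The other glycolysis genes, such as Pfkl, Eno1 and Slc2a3, were not analysed here for the same reason.

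Blast rats were first compared with sham control rats, with the pressures pooled, to ask whether follicles of exposed rats differ in the genes that take up and break down glucose. Aldoa and Pkm were higher in all 5 blast rats than in any sham control rat, by 1.37-fold and 1.54-fold on average, and Hk1 was lower in 4 of 5. The group means of Slc2a1, Hk2 and Tpi1 differed by 0.0047, -0.07 and -0.01 on the log2 scale. None of the 10 genes passed the test over all probes, as each had an adjusted p of 0.9999 in limma. Of all 30366 probes, 0 (0%) passed it, and the smallest adjusted p was 0.541. At an unadjusted p under 0.05 limma gave 1 of the 10 genes, Aldoa, against 850 probes (2.80%) of all those tested. The latter count was 1649 without H1, 1671 with array quality weights and 442 with dim probes left out, where fewer probes were tested. Of the 17569 probes well above background on all 8 arrays, 421 (2.4%) were under it. The adjusted count was 2 without C1 and 3 without C3. At the closest rats, the groups were 0.0013 apart for Aldoa and 0.03 for Pkm on the log2 scale. The groups did not overlap for these 2 of the 10 genes, against 605 (2.0%) of 30217 probes that had a value in every rat. With counts of 1 and 2 genes, nothing is read from these shares about the list. Of the 10 genes, 6 were higher and 4 lower in blast rats, with a median log2 fold change of 0.08, against 0.0045 for all probes. Single rats moved the median of the list, which was -0.04 without C1, 0.0046 without H1, 0.23 without C2 and 0.16 without M3. In these bulk samples, fewer cells of a type and less RNA per cell cannot be told apart.

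**Figure D1:**
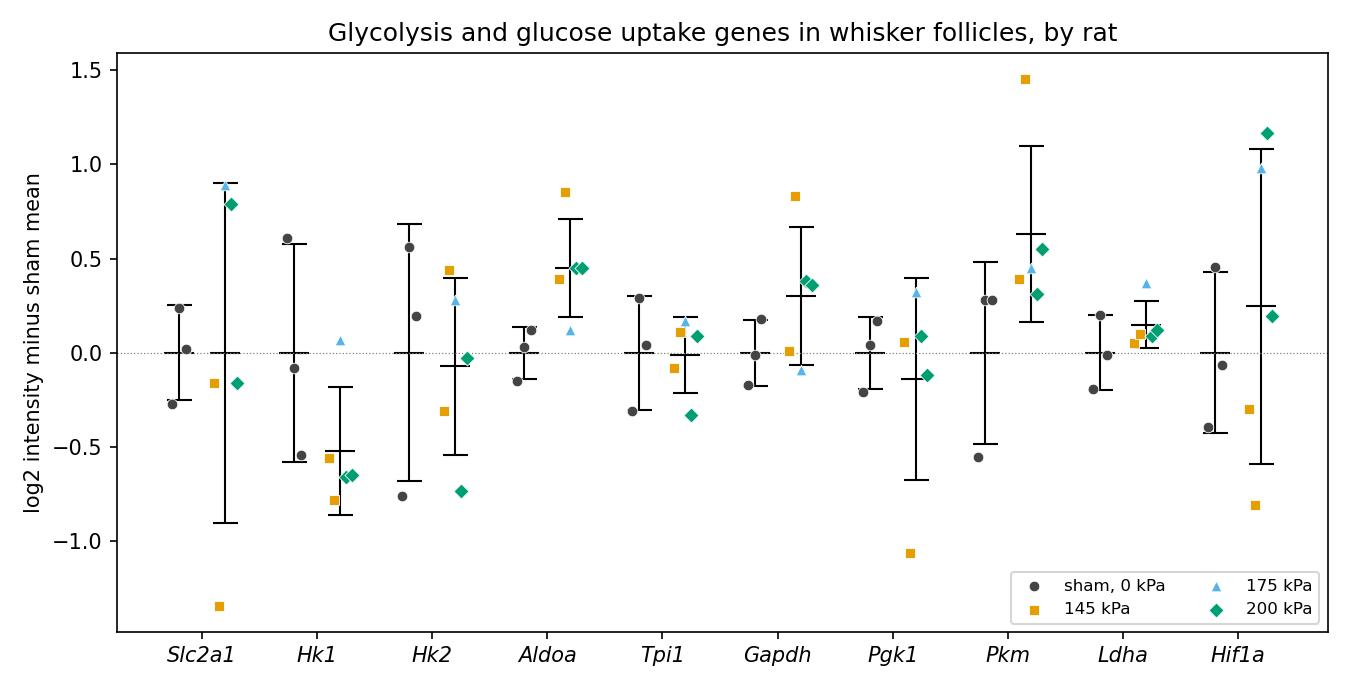
Log2 intensity of each of the 10 genes in each rat, minus the mean of the sham control rats (vertical axis). Each symbol is 1 rat, coloured by pressure, with sham control rats on the left and blast rats on the right of each gene, and the bars give the mean and SD of 3 and 5 rats. The blast rats spread from -1.34 to 0.89 for Slc2a1, around a mean close to that of the sham control rats. All 5 lie above the sham control rats for Aldoa and Pkm, by 0.0013 and 0.03 at the closest.

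Slc2a1 encodes GLUT1, the transporter that brings glucose into many cell types, among them keratinocytes. Its log2 intensity was 12.91, 13.42 and 13.20 in C1, C2 and C3. It was 13.02 in M2, 11.84 in M3, 14.07 in H1, 13.97 in XH1 and 13.02 in XH3. The blast rats thus lay on both sides of the sham control rats, with H1 and XH1 above all of them and M3 below all of them. The group means were 13.18 ± 0.25 (SD, n = 3) and 13.18 ± 0.90 (SD, n = 5), with a log2 fold change of 0.0047 (standard error 0.50) and a two-sided exact permutation p of 1. The 95% confidence interval from limma ran from -1.16 to 1.17, so that a 2.25-fold higher level in blast rats still lay within it. Between the lowest and the highest blast rat the level differed 4.68-fold. The probe has 10 spots on each array, and their SD within an array was at most 0.06, which covers the noise between spots and not that of RNA preparation, labelling or arrays. Without M3 the log2 fold change was 0.34 and without H1 it was -0.22, so that single rats set its direction. In the rows of the slide it was 0.38 and -0.26.

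Hexokinases carry out the first step of glycolysis. Hk1, the form found in most tissues, had log2 intensities of 11.69, 11.00 and 10.54 in C1, C2 and C3. In blast rats it was 10.52 in M2, 10.30 in M3, 11.15 in H1, 10.42 in XH1 and 10.43 in XH3. All blast rats other than H1 lay below all sham control rats, although M2 did so by little, and the groups overlapped through H1. Sham control rats averaged 11.08 ± 0.58 (SD, n = 3) and blast rats 10.56 ± 0.34 (SD, n = 5), so that the log2 fold change was -0.52 (standard error 0.30, two-sided exact permutation p = 0.196). C1 weighed heavily on this value, which was -0.21 without it. Without H1 it was -0.66 and without C3 it was -0.78, with unadjusted limma p of 0.0452 and 0.0363. In the rows of the slide it was -0.51 and -0.16.

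Hk2, the hexokinase that is known to respond to insulin and to low oxygen, ranged over the same levels in both groups. It lay between 8.55 (C1) and 9.87 (C2) in sham control rats and between 8.57 (XH1) and 9.75 (M3) in blast rats. Its log2 fold change was -0.07 (standard error 0.37, two-sided exact permutation p = 0.839), and it took either sign as single rats were left out. By slide row it was 0.08 and -0.30.

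Aldoa encodes the aldolase that splits the phosphorylated sugar. Its log2 intensity was 13.20, 13.38 and 13.47 in C1, C2 and C3, and in blast rats it was 13.74 in M2, 14.20 in M3, 13.47 in H1, 13.80 in XH1 and 13.80 in XH3. Every blast rat thus lay above every sham control rat, but H1 exceeded C3 by only 0.0013. The probe's spots differed within an array by an SD of up to 0.12. Sham control rats averaged 13.35 ± 0.14 (SD, n = 3) and blast rats 13.80 ± 0.26 (SD, n = 5), and the log2 fold change was 0.45 (standard error 0.17, two-sided exact permutation p = 0.0357, where the smallest possible p is 0.0179). The unadjusted p from limma was 0.0329 and the adjusted p 0.9999. This was the 1 gene of the list under an unadjusted p of 0.05, and it was no longer so without C1 (0.108), C2 (0.0658), XH1 (0.0548) or XH3 (0.0566), with scaling to the 75th percentile (0.0890) or with dim probes left out (0.0682). Within the rows of the slide, blast rats were 0.32 higher in the first row and 0.46 higher in the second, there against C3 alone.

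Tpi1 encodes triosephosphate isomerase, which converts one product of that split into the other. Its groups differed by -0.01 on the log2 scale (standard error 0.18), with a two-sided exact permutation p of 0.982. The second probe of Tpi1 gave 0.09 (standard error 0.21). By slide row the difference on the brightest probe was 0.06 and -0.08. The group difference was thus small against its error with either probe, and its sign changed between the probes.

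The later enzymes oxidize the split sugar and return ATP. Gapdh, the oxidizing enzyme, which is also widely used as a reference gene, had 3 probes, all well above background on 8 arrays. On the brightest, the level was 14.53, 14.69 and 14.88 in C1, C2 and C3 and 14.71, 15.53, 14.61, 15.08 and 15.06 in M2, M3, H1, XH1 and XH3. M3, XH1 and XH3 were higher than every sham control rat, while M2 and H1 lay among them. The log2 fold change was 0.30 (standard error 0.22, two-sided exact permutation p = 0.25), and it was 0.16 without M3. The other probes gave 0.20 and 0.46, with two-sided exact permutation p of 0.375 and 0.0357. On the last of these every blast rat exceeded every sham control rat, so that whether the groups overlapped depended on the probe. In the rows of the slide the brightest probe was 0.05 and 0.35 higher in blast rats. Across the 8 rats the brightest probe had correlations of 0.870 and 0.931 with the others.

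Pgk1 encodes phosphoglycerate kinase, the first enzyme of the pathway to return ATP. Its level was 15.33, 15.58 and 15.71 in C1, C2 and C3 and 15.60, 14.48, 15.86, 15.63 and 15.42 in M2, M3, H1, XH1 and XH3. M3 lay far below the other 7 rats, which were close together. The log2 fold change was -0.15 (standard error 0.31, two-sided exact permutation p = 0.839), and it was 0.08 without M3. By slide row it was 0.27 and -0.53, in opposite directions, and the second row held M3, with C3 as its only sham control rat.

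Pkm encodes the pyruvate kinase that makes pyruvate and ATP. On the probe that was well above background, its level was 10.98, 11.81 and 11.81 in C1, C2 and C3 and 11.92, 12.98, 11.98, 11.84 and 12.08 in M2, M3, H1, XH1 and XH3. The lowest blast rat, XH1, exceeded the highest sham control rat by 0.03, and the ends of the range were C1 and M3. The log2 fold change was 0.63 (standard error 0.32, two-sided exact permutation p = 0.0536), and the unadjusted p from limma was 0.0902. It was 0.35 without C1, 0.42 without M3 and 0.37 with array quality weights. In the rows of the slide it was 0.55 and 0.49. The probe has 1 spot per array, and the other Pkm probe was well above background on 0 of 8 arrays, so that the value rests on single spots. The mean over both probes, which takes in the dim one, gave a log2 fold change of 0.32.

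Ldha encodes the lactate dehydrogenase subunit that favours making lactate. It varied least of the 10 genes, with an SD over the 8 rats of 0.16. The SD between its 2 spots within an array was as large, with a median of 0.16 and up to 0.25. Sham control rats had levels of 16.00, 16.39 and 16.18, and blast rats ranged from 16.24 (M2) to 16.56 (H1). The log2 fold change was 0.15 (standard error 0.13, two-sided exact permutation p = 0.304), and of the blast rats only H1 exceeded C2, the highest sham control rat. The difference was 0.05 without C1, 0.09 without H1 and 0.25 without C2, and 0.21 and 0.11 by slide row.

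Hif1a encodes the subunit of hypoxia-inducible factor whose protein is stabilized when oxygen is low, a step that its RNA level does not report. The level was 6.90, 7.75 and 7.23 in C1, C2 and C3. It was 6.99 in M2, 6.48 in M3, 8.27 in H1, 8.46 in XH1 and 7.48 in XH3. As for Slc2a1, H1 and XH1 were above all sham control rats and M3 was below all of them. The means were 7.29 ± 0.43 (SD, n = 3) and 7.54 ± 0.84 (SD, n = 5), with a log2 fold change of 0.25, a standard error of 0.48 and a two-sided exact permutation p of 0.661. Single rats moved this difference, which was 0.02 without XH1, 0.05 without C1, 0.06 without H1, 0.38 without M2, 0.47 without C2 and 0.51 without M3. In the rows of the slide blast rats were 0.31 and 0.25 higher.

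Hbb (NM_033234), a globin gene that marks red blood cells, was higher on average in blast rats, and its values are given beside these results. Its brighter probe was at 10.21, 13.96 and 11.64 in C1, C2 and C3 and at 17.42, 13.34, 15.37, 13.31 and 14.43 in M2, M3, H1, XH1 and XH3. The log2 fold change was 2.84 (standard error 1.17, two-sided exact permutation p = 0.0893). The unadjusted p from limma was 0.0435. The other Hbb probe had a log2 fold change of 3.46 (standard error 1.15, two-sided exact permutation p = 0.0357) and an unadjusted limma p of 0.0183, and both probes had an adjusted p of 0.9999. C1, the lowest rat for Hbb, was also the lowest for Hk2, Aldoa, Gapdh, Pkm and Ldha. M2, the highest rat for Hbb, was neither the highest nor the lowest for any of the 10 genes. The part of red blood cells in the results was not tested. Other red blood cell genes were not analysed here.

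The genes varied from rat to rat. The median SD over the 8 rats was 0.45 for the list, against 0.42 for all probes and 0.39 for the 17569 probes well above background on all 8 arrays. M3 was the highest rat for 3 genes (Aldoa, Gapdh and Pkm) and the lowest for 4 (Slc2a1, Hk1, Pgk1 and Hif1a). C1 was the lowest rat for 5 genes (Hk2, Aldoa, Gapdh, Pkm and Ldha) and the highest for Hk1. H1 was the highest for Slc2a1, Pgk1 and Ldha. In both M3 and C1, enzymes of the same pathway thus stood at opposite ends of their ranges.

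M3 also stood apart on the whole array. Over the 17472 of these bright probes that had a value in every rat, its median correlation with the other arrays was 0.957, against 0.961 for H1 and between 0.971 and 0.982 for the others. These correlations are across probes, which are not independent replicates. The SD of the deviations of M3 from the probes' means was 0.73 over all these probes and 0.81 over the 10 genes. Over all these probes it was 0.60 in H1 and 0.58 in C1. The array of M3 had the lowest share of spots well above background, 65.9%, and the most outlier spots, 947. The median signal before normalization also differed between arrays, from 280.5 in C1 to 90.9 in C2, and was 93.3 in M3. The part of these differences between arrays in the results was not tested. Without M3 the difference between the groups was 0.35 for Aldoa, 0.16 for Gapdh and -0.45 for Hk1.

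**Figure D2:**
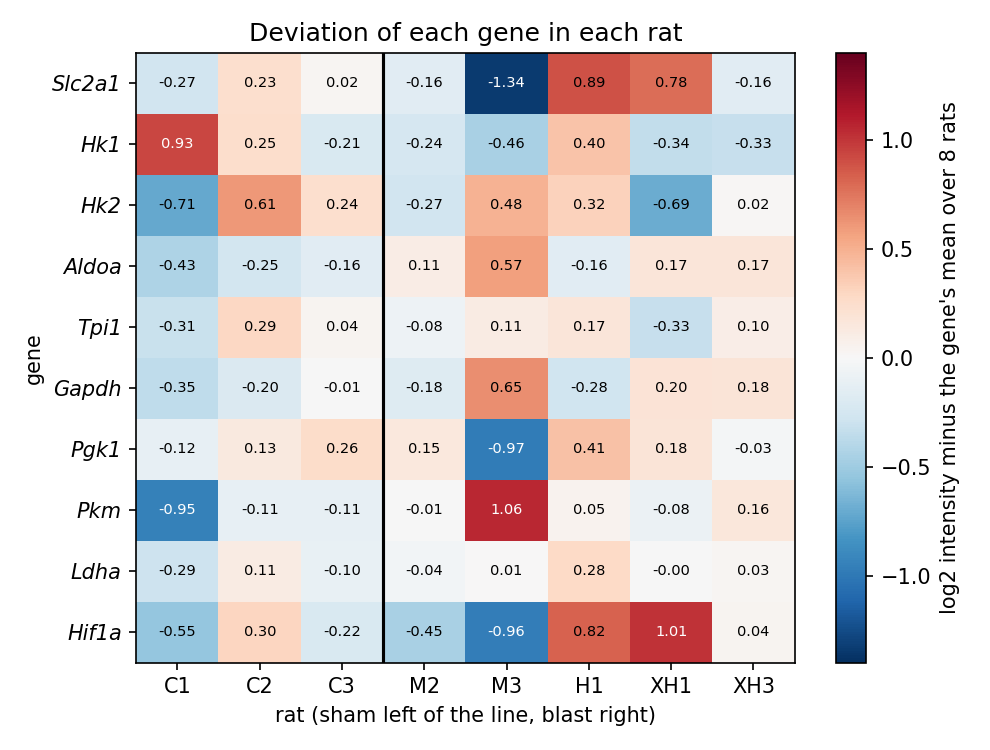
Deviation of each gene (rows) in each rat (columns) from the gene's mean over the 8 rats, in log2 units, with red for higher and blue for lower. The vertical line parts the sham control rats from the blast rats. In M3, Pkm was 1.06 above its mean and Slc2a1 1.34 below its mean, the widest contrast between genes within a rat.

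The levels of some genes followed each other from rat to rat. All 45 pairs of the 10 genes were compared over the 8 rats with two-sided exact permutation tests over 40320 orders, and p was adjusted over the 45 pairs. Under an adjusted p of 0.05 were 5 pairs by Pearson's r and 3 by Spearman's rho. With scaling to the 75th percentile the r of these 5 pairs lay between 0.854 and 0.967, and with normexp background correction between 0.887 and 0.958. Other pairs moved with that scaling. Gapdh and Pkm went from 0.827 to 0.925, Tpi1 and Ldha from 0.685 to 0.892, and Slc2a1 and Ldha from 0.423 to 0.0701. Which pairs stood out thus depended in part on the scaling. Slc2a1 and Hif1a had an r of 0.931 (exact permutation p = 0.000496, adjusted p = 0.014) and a rho of 0.952 (exact permutation p = 0.00114, adjusted p = 0.0256). The r was 0.946 without M3 and H1, the rats farthest from the median of Slc2a1, and 0.859 without XH1 and H1, those farthest for Hif1a. Without all 3 of these it was 0.80 over the 5 rats that remain, a description only, and it ran from 0.908 to 0.946 as each rat was left out in turn. The r was 0.947 with each group centred on its mean and 0.953 with each row of the slide centred on its mean. Of 17471 other probes well above background, 16 (0.0916%) followed Slc2a1 at least as closely as Hif1a did. This count takes in Hif1a itself, as every such count here takes in the partner. Only pairs past the threshold were set beside other probes, so small shares follow in part from that choice and are a description only. With Hif1a as the reference, 5 (0.0286%) followed it as closely as Slc2a1. The spots of Hif1a differed within an array by an SD of up to 0.59, and its median was 0.08.

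Hk2 and Tpi1 formed another pair of this kind, with an r of 0.963 (exact permutation p = 0.00062, adjusted p = 0.014) and a rho of 0.929 (exact permutation p = 0.00223, adjusted p = 0.0334). Both were low in C1 and XH1 and high in C2, and without C1 and XH1 the r was 0.861. As each rat was left out in turn it ran from 0.945 to 0.978. It was 0.964 within the groups and 0.970 within the rows. Here 30 of the other probes (0.172%) followed Hk2 as closely. The rows held 4 rats each, so that an r within a single row is a description only. For the 5 pairs past the threshold by Pearson's r it lay between 0.769 and 0.998.

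**Figure D3:**
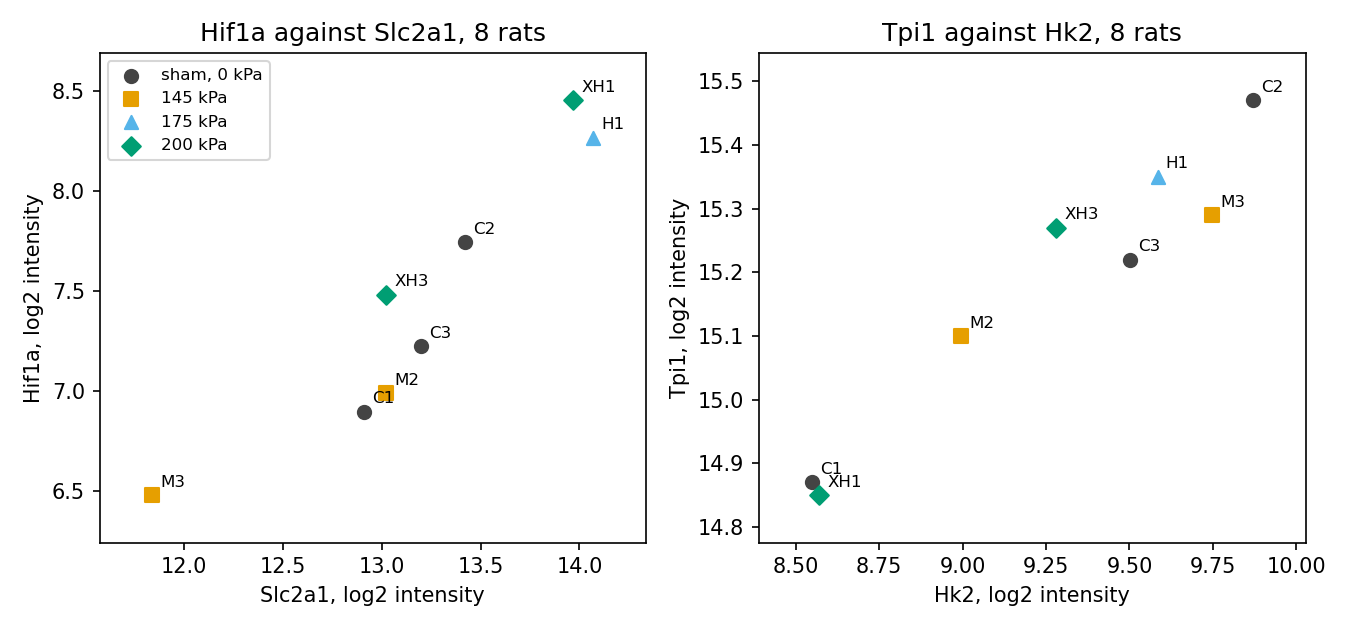
Log2 intensity of Hif1a against Slc2a1 (left) and of Tpi1 against Hk2 (right), with 1 symbol per rat, coloured by pressure and labelled with the rat. The levels go up together in both panels, with r of 0.931 and 0.963 over 8 rats, and the slopes of the groups were not compared.

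The other pairs were past the threshold by only one of the measures, and 3 of them had a clearly lower r without the rats at the ends. Slc2a1 and Pgk1 had an r of 0.896 (exact permutation p = 0.00295, adjusted p = 0.0357) and a rho of 0.833 (exact permutation p = 0.0154, adjusted p = 0.099), and r was 0.528 without M3 and H1. Aldoa and Gapdh had an r of 0.906 (exact permutation p = 0.00317, adjusted p = 0.0357) and a rho of 0.857 (exact permutation p = 0.0107, adjusted p = 0.0802), and Aldoa and Pkm an r of 0.886 (exact permutation p = 0.00414, adjusted p = 0.0373) and a rho of 0.881 (exact permutation p = 0.00724, adjusted p = 0.0652). Without M3 and C1 these were 0.684 and 0.471. These 3 relations thus rested in part on the rats at the ends. Without M3 alone the r of these pairs was 0.736, 0.786 and 0.739. Of the other probes, 39 (0.223%) followed Slc2a1 as closely as Pgk1 did, and 231 (1.32%) and 337 (1.93%) followed Aldoa as closely as Gapdh and Pkm did. Hk1 ran against Gapdh, with a rho of -0.976 (exact permutation p = 0.000397, adjusted p = 0.0179) and an r of -0.777 (exact permutation p = 0.0197, adjusted p = 0.111). This r was -0.736 without C1 and H1, and 672 (3.85%) of the other probes had an r with Hk1 at least as low. It was -0.933 and -0.961 over the 4 rats of each row, and -0.439 over all 8 rats with the rows centred on their means.

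Among the 5 blast rats, a trend of the level with pressure was then fitted, to ask whether higher pressures went with higher or lower levels. The mean log2 intensity of Slc2a1 was 12.43 at 145 kPa (n = 2), 14.07 at 175 kPa (n = 1) and 13.49 at 200 kPa (n = 2). For Hif1a it was 6.74, 8.27 and 7.97. Both genes were thus lowest on average at 145 kPa and highest on average at 175 kPa, where there was 1 rat. Their slopes were 0.20 (standard error 0.13) and 0.23 (standard error 0.10) on the log2 scale per 10 kPa, with unadjusted limma p of 0.188 and 0.0785 and an adjusted p of 0.9999. The rats at 145 kPa differed from each other, as M2 had a Slc2a1 level of 13.02 and M3 of 11.84, and the slope of Slc2a1 was 0.07 without M3 and 0.31 without XH3. With the sham control rats added at 0 kPa, the slopes of Slc2a1 and Hif1a were 0.011 and 0.025.

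None of the 10 genes passed the unadjusted or the adjusted threshold for this trend, and 5 slopes were positive and 5 negative. Of 30354 probes, 865 (2.85%) had an unadjusted p under 0.05 and 0 (0%) passed after adjustment. The former count went from 411 without XH1 to 4795 without M2. The negative slopes were those of Hk2 (-0.08), Aldoa (-0.03), Tpi1 (-0.02), Gapdh (-0.01) and Pkm (-0.09). Single rats moved the slope of Hk2, which was -0.16 without M2, -0.03 without M3 and -0.0060 without XH1. The other negative slopes changed sign. Without M3 those of Aldoa, Gapdh and Pkm were 0.018, 0.074 and 0.0071, and without XH1 that of Tpi1 was 0.019. The higher levels of Aldoa and Pkm in blast rats were not accompanied by a detectable increase with pressure in these 5 rats. Their slopes were 0.023 and 0.030 with the sham control rats added at 0 kPa, with unadjusted limma p of 0.0624 and 0.167. When the slide row entered as a block, the slopes of Slc2a1, Pgk1 and Hif1a had unadjusted p of 0.0289, 0.0215 and 0.0407, and 0 genes passed after adjustment. The negative slopes of Aldoa, Gapdh and Pkm were steeper in that fit, at -0.08, -0.07 and -0.15, with unadjusted p of 0.0758, 0.0927 and 0.0741. There the count of all probes under an unadjusted p of 0.05 was 1807 in place of 865, so that more probes passed on the whole array as well. The rat at 175 kPa lay in the first row and both at 200 kPa in the second, so the fit to 5 rats cannot fully part pressure from row. Nothing is read from it about the list. Without XH3, Hif1a alone of the 10 genes had an unadjusted p under 0.05, at 0.0250, beside 508 of all probes.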

How the data were processed

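Follicle RNA of 8 rats was measured on 1-colour arrays. The authors deposited the background-subtracted intensity of each spot as Feature Extraction 10.7.1.1 gave it. A table of log2 values that the authors deposited beside it was quantile normalized, with a median of 6.70 in each column. From the intensities, control and outlier spots were left out, log2 values of a probe's spots were averaged, quantile normalization followed on the linear scale, and values under 3.0 were set to 3.0. The methods set this limit on measured spots, of which the lowest here was at 3.07. Groups were compared with limma 3.58.1 in R 4.3.3, with Benjamini-Hochberg adjustment over 30366 probes and confidence intervals from the same fit, and single genes also with an exact permutation test over 56 arrangements. The trend with pressure was fitted with limma over 30354 probes. The steps were tested on simulated data. All 10 genes were named, and the probe with the highest mean stood for a gene. Members and lists were chosen with earlier results of these data known. The gene table used here, of Rattus rattus, matched 0 accessions, so symbols came from the list and the study's primer table. Alternatives were other scaling, background correction, lower limits, filters, tests, weights, blocks and probes, and each rat left out. The settings in which rats were left out of the pairs of genes, or centred within groups or rows, were chosen after seeing the data. So were the pairs set beside all other bright probes.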

Additional observations from a re-analysis of the deposited data

Results flagged for a closer look

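In 3 genes, 1 blast rat stood far from the other 4, measured as its gap to the nearest blast rat over the range of the 5. For Hk1 this share was 0.745, with H1 at 11.15 above 10.52 in M2, the next. For Pkm it was 0.79, with M3 at 12.98 above 12.08 in XH3. For Ldha it was 0.77, with H1 at 16.56 above 16.31 in XH3. For normally distributed values, the limit used is one that chance passes in about 1 in 20 groups, and 10 genes were looked at. The Pkm probe has 1 spot on each array. The 2 spots of Ldha differed within an array by an SD of up to 0.25.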

How the results depend on the processing

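The number of arrays and, for Pkm and Gapdh, single spots limit these results. Of the 10 genes, 0 passed the adjusted threshold under the alternatives run with limma, and 0 with the methods' analysis of variance, in which 683 probes had an unadjusted p under 0.05. Hk1, Aldoa, Gapdh, Pkm, Ldha and Hif1a kept the direction of their difference between the groups under the alternatives run, Aldoa between 0.35 and 0.55, with a lowest adjusted p of 0.882. Leaving out the lower limit, filtering dim probes and changing the test could not move the differences of these genes, so those settings were no check of them. The mean over probes can change only genes with several probes, and it took Pkm from 0.63 to 0.32. With array quality weights Pkm was at 0.37, Gapdh at 0.19 and Hk1 at -0.34. Gapdh was at 0.17 with the row as a block. Background correction with normexp was run on the median signal, a choice made after seeing the data. The mean signal was not used here.

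The count of genes at an unadjusted p under 0.05 was 1 and went to 0 with scaling to the 75th percentile and with dim probes left out, and from 0 to 2 as each rat was left out (2 without H1 or C3). For all probes it was 850, against 442 with dim probes left out, 1671 with array quality weights, and 657 (without C1) to 1649 (without H1). The adjusted count of probes was 0 to 3 (2 without C1, 3 without C3). For the trend, the count of genes was 3 with the row as a block and 0 to 1 as blast rats were left out. The count of probes was 485 with normexp, 341 with dim probes left out, 1807 with the row as a block, and 411 (without XH1) to 4795 (without M2), with 508 without XH3 and 1302 without M3. Counts with dim probes left out come from fewer probes tested, so they do not compare directly with the others.

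Several small values changed sign. As rats were left out, the log2 fold change ran from -0.22 to 0.34 for Slc2a1, -0.45 to 0.21 for Hk2, -0.17 to 0.13 for Tpi1 and -0.26 to 0.084 for Pgk1. Tpi1 was also at 0.074 with scaling to the 75th percentile, 0.025 with the deposited log2 values, 0.00041 with the row as a block and 0.039 as the mean of its probes. Slopes per 10 kPa ran from -0.034 to 0.034 for Hk1, -0.061 to 0.018 for Aldoa and -0.048 to 0.019 for Tpi1. They ran from -0.067 to 0.074 for Gapdh, -0.021 to 0.17 for Pgk1, -0.17 to 0.0071 for Pkm and -0.0054 to 0.0196 for Ldha. The slope of Hk2 moved from -0.16 to -0.0060 and stayed negative. With all 8 rats the slope was -0.028 for Hk1, 0.023 for Aldoa, 0.016 for Gapdh, -0.0033 for Pgk1 and 0.030 for Pkm. It was -0.0085 for Hk1 with the deposited values and -0.015 for Ldha with the 75th percentile. Beyond fewer rats or probes in a fit, the cause was not tested.

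With the number in the titles as a replicate block, Tpi1 was at 0.0093, Aldoa at 0.45 and 850 probes had an unadjusted p under 0.05, and the block changed no call. The block was not fitted for the trend. Deviations of sham control and blast rats that share a number correlated between -0.301 and 0.324, so the numbers were not taken as pairs. Blast rats of different pressures that share a number were not compared.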
